A study of Mus musculus with 8 samples.

Results

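The effect of 4-phenylbutyrate (PBA) on the islets of mice that carry a human islet amyloid polypeptide (hIAPP) transgene was read from 4 of the 8 arrays of the study. The 2 arrays of PBA-treated hIAPP mice were compared with the 2 arrays of untreated hIAPP mice across 17097 genes. The transgene is driven by the Ins2 promoter, which is active in beta cells, and the labels name the same strain for all groups, wild-type mice included, which is FVB/N-Tg(Ins2-IAPP)RFHSoel/J. Treated mice received PBA at 1 g/kg/day from the age of 8 weeks for 12 weeks. Islets of Langerhans were taken at 20 weeks in all groups, and sex is not given. The 2 untreated and the 2 PBA-treated wild-type arrays helped to estimate the spread and served for comparison. Whether each array held the islets of 1 mouse or of several is not in the labels, nor whether arrays of a group had different mice, so p-values measure only the spread between these samples, which may be technical. The transgene's own transcript was not analysed here.

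Islet amyloid polypeptide is a peptide hormone that beta cells store and release with insulin. The human form can aggregate into amyloid, as it does in islets in type 2 diabetes, whereas the mouse form does not. PBA is a small fatty acid derivative that acts as a chemical chaperone, which helps proteins to fold in the endoplasmic reticulum (ER), and it also inhibits histone deacetylases. Amyloid-laden islets are known to hold macrophages, which take up aggregates, and an islet preparation also carries blood vessels, stellate cells, ducts and remnants of the acinar tissue around it.

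Values are deposited expression levels on the log2 scale, where 1 unit is a 2-fold difference. The 95th percentile of the non-specific control probe sets was 4.68, and values below it are near background. The islet label held on all arrays: the insulin gene Ins2 lay at about 14 on all 8, at the top of the scale. Correlation across genes was 0.9933 to 0.9942 within groups and 0.9723 to 0.9935 between groups. The probe sets for the spiked-in hybridisation controls stood apart on the first treated wild-type array, with a median level of 7.1 there against 9.8 to 10.2 elsewhere. The median level of 32 acinar genes was 10.80 and 12.05 on the untreated hIAPP arrays, 7.90 and 9.60 on the treated hIAPP arrays, and 10.30 to 12.00 on the wild-type arrays. The median gene lay at 5.9 on both untreated hIAPP arrays and at 5.7 on the other 6.

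On the deposited scale, more transcripts were lower than higher with PBA in hIAPP islets, and the falls were larger. Of 17097 genes, 1384 passed an adjusted p of 0.05 (8.09% of those tested), 304 of them higher with PBA (1.78%) and 1080 lower (6.32%). With each array centred on its own median gene, 3499 genes passed, 2611 higher and 888 lower, and the median change of all genes moved from 0.00 to 0.20, so the share of falls depends on the scaling. The change was at least 2-fold for 609 of the lowered genes and 20 of the raised ones. The median change was -1.10 among lowered genes and 0.60 among raised genes, against 0.00 over all genes. Genes of macrophages, complement, extracellular matrix, stellate cells and blood vessels were prominent among the falls, while the rises held genes of insulin secretion, islet transcription factors and vesicle exocytosis. In bulk islet RNA, fewer cells of a type and less RNA per cell cannot be told apart.

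For all 1384 genes the treated and untreated arrays did not overlap, as was also the case, over all genes tested, for 22.6% in the higher and 20.8% in the lower direction. Both untreated hIAPP arrays were above the other 6 arrays for 1033 of the 1080 lowered genes (12.0% of all genes), and both were below the other 6 for 265 of the 304 raised genes (10.8% of all genes). These levels are a description, since the same untreated arrays entered the comparison. The median level of the lowered genes was 7.0 in untreated hIAPP, 5.70 in treated hIAPP, 5.60 in untreated wild-type and 5.40 in treated wild-type islets. For the raised genes it was 7.22, 7.85, 7.70 and 7.85 in the same order. Among the lowered genes, the treated mean of 322 was near background, so their falls are bounded by it.

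**Figure D1:**
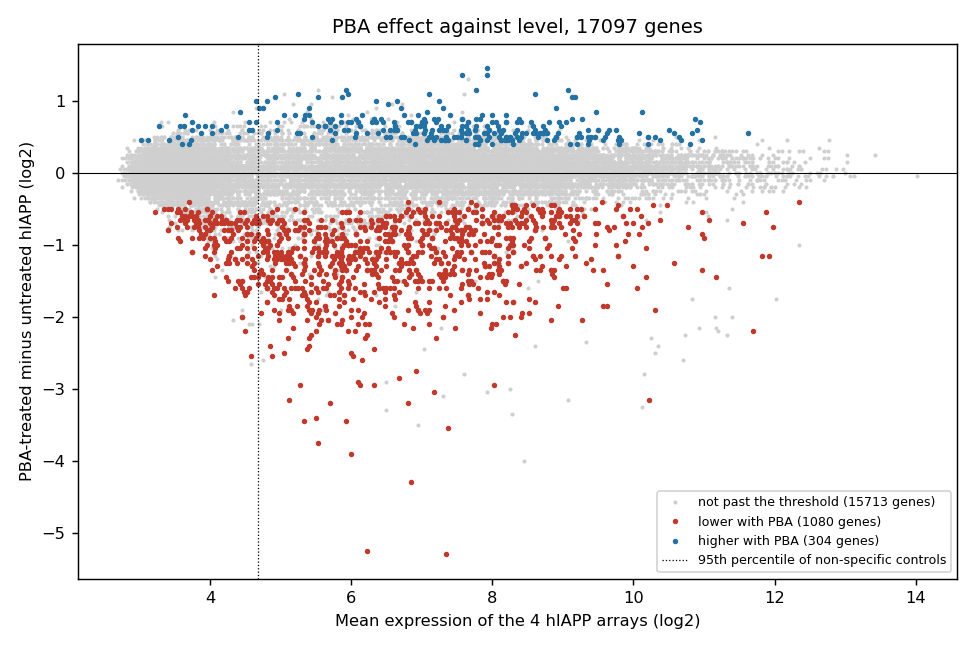
Each point is a gene, with the mean level of the 4 hIAPP arrays (log2) on the horizontal axis and PBA-treated minus untreated hIAPP (log2) on the vertical axis. The 1080 lowered genes reach -5.30, whereas the 304 raised genes reach 1.45, and both occur above the dotted background line.

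The count also depended on single arrays. For this comparison the wild-type arrays enter only the estimate of the spread, so leaving 1 of them out cannot move a change. Leaving out either array of a wild-type group gives the same fit, so the 8 fits are not separate checks. Leaving out untreated hIAPP 1 or 2 left 166 or 332 genes, leaving out treated hIAPP 1 or 2 left 266 or 432, and without either untreated wild-type array 831 passed. In total, 123 of the 1384 genes (8.9%) passed in each of the 8 fits that left out 1 array, 122 of them lower. With the acinar median of each array as a covariate, which costs a residual degree of freedom, 41 genes passed, all of them lower and all among the 1384. Some list medians moved less than the calls. With the covariate they were -1.17 for core macrophage markers (-1.0 without it) and -1.05 for stellate, pericyte and smooth muscle genes (-1.12). They were -0.81 for blood endothelial genes (-0.85) and -0.93 for matricellular and elastic fibre genes (-1.0). In these lists 0, 2, 1 and 5 members still passed, in the same order. Other medians moved further, to -0.72 for MHC class II genes (-0.97) and -1.37 for lipid-handling macrophage genes (-0.90). That of exocytosis genes moved to 0.13 (0.25). That of acinar genes moved to 0.09 (-2.20) by construction, since the covariate is the median of this same list.

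The largest falls belonged to genes of activated macrophages, immune cells, matrix and vessels. Mmp12, the macrophage elastase that degrades elastin, was at 9.1 and 8.9 on the untreated arrays and at 4.7 on both treated arrays, a change of -4.30 (SE 0.17, adjusted p = 1.8e-04). Ccl9, a chemokine of the myeloid lineage, was at 7.2 and 7.4 untreated and at 4.0 and 4.2 treated, a change of -3.20 (SE 0.12, adjusted p = 1.8e-04). Ccl21b, a chemokine that draws lymphocytes and dendritic cells, was at 7.9 and 8.0 untreated and at 3.8 and 4.3 treated (change -3.90, SE 0.26, adjusted p = 0.0011). Its near-identical copies cannot be separated by these probes. In each of these genes the 2 arrays of a group lay within 0.5 of each other while the groups stood at least 3 log2 units apart.

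Gpnmb, a membrane glycoprotein of lipid-laden macrophages, was at 9.6 and 8.7 untreated and at 5.6 on both treated arrays (change -3.55, SE 0.33, adjusted p = 0.0021). Retnla, a secreted marker of alternatively activated macrophages, was at 7.2 and 7.6 untreated and at 3.7 and 3.6 treated (change -3.75, SE 0.46, adjusted p = 0.0045). Smoc2, a calcium-binding matricellular protein, was at 7.9 and 7.4 untreated and at 4.1 and 4.3 treated (change -3.45, SE 0.18, adjusted p = 6.5e-04). For Smoc2 the treated hIAPP arrays lay near the wild-type arrays, which were at 4.0 to 4.2 in both treatments. Vwf, the von Willebrand factor of endothelial cells and platelets, was at 8.6 and 8.2 untreated and at 4.9 and 5.5 treated (change -3.20, SE 0.26, adjusted p = 0.0016).

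The other named falls among the 15 largest were an immunoglobulin kappa variable segment (-5.25), Cytl1 (-3.45), Ces1d (-3.40), a carboxylesterase, Ptger3 (-3.15), a prostaglandin E2 receptor, Sycn (-3.15), a protein of acinar secretory granules, Aldh1a1 (-3.05), a retinal dehydrogenase, Aqp4 (-2.95), a water channel, and Lrg1 (-2.95). For 14 of the 15 both untreated hIAPP arrays were above all other arrays, Sycn being the exception. The treated mean of 9 of the 15 was near background. Of the 15, 10 passed in each of the 8 fits without 1 array. Aldh1a1 rested on unequal arrays, at 4.4 on treated hIAPP 1 and 6.9 on treated hIAPP 2, against 8.6 and 8.8 untreated.

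**Figure D2:**
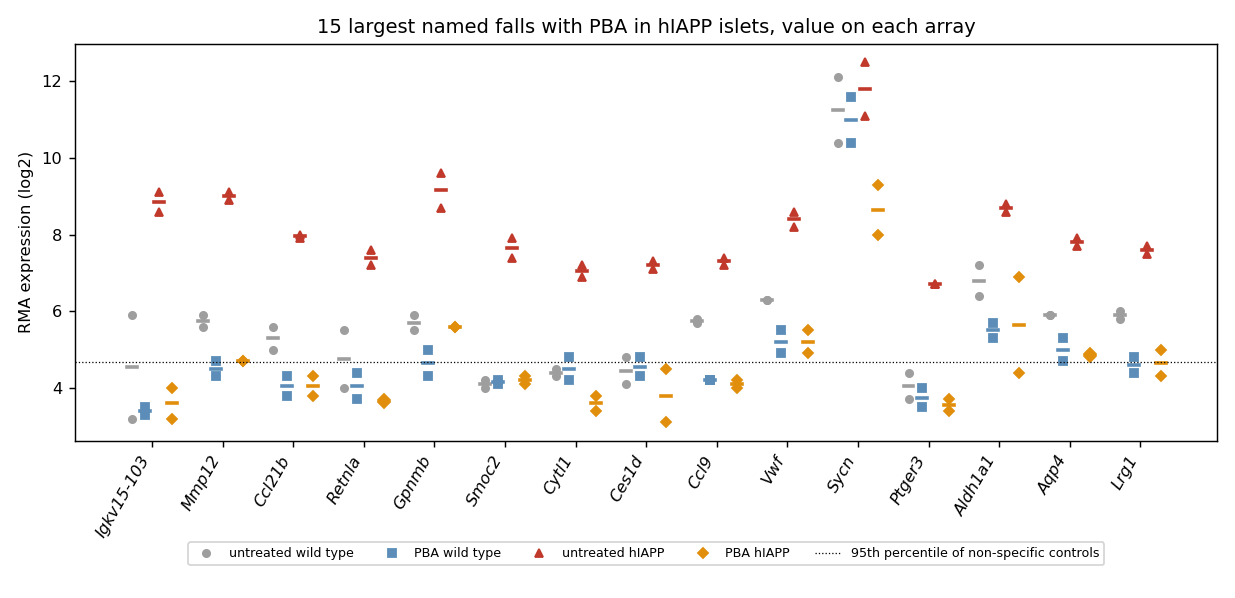
RMA expression (log2) of the 15 largest named falls on each of the 8 arrays, 2 points per group with a short line at the group mean. The untreated hIAPP points stand above all others for 14 genes, and Sycn varies within every group.

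The largest rises were smaller and came from genes of neuropeptide signalling, second messengers and secretory cells. Npy, neuropeptide Y, was at 7.2 on both untreated arrays and at 8.9 and 8.4 on the treated arrays, a rise of 1.45 (SE 0.18, adjusted p = 0.0045). Car15, a carbonic anhydrase, was at 7.1 and 7.4 untreated and at 8.6 on both treated arrays (change 1.35, SE 0.14, adjusted p = 0.0030). Pde10a, a phosphodiesterase that breaks down cyclic AMP and cyclic GMP, was at 6.7 and 7.1 untreated and at 8.1 and 8.4 treated (change 1.35, SE 0.21, adjusted p = 0.0098). For each of the 15 largest named rises both untreated hIAPP arrays were below the other 6 arrays.

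Bhlha15, a transcription factor of secretory cells that is also known as Mist1, was at 8.6 and 8.7 untreated and at 9.7 on both treated arrays (change 1.05, SE 0.11, adjusted p = 0.0025). It was the single raised gene that passed in each of the 8 fits without 1 array. Srm, which makes spermidine, was at 8.7 and 8.5 untreated and at 9.7 and 9.6 treated (change 1.05, SE 0.12, adjusted p = 0.0036). Ctnnal1, a relative of alpha-catenin, was at 8.1 and 8.0 untreated and at 9.2 and 9.1 treated (change 1.10, SE 0.13, adjusted p = 0.0039). These groups were separated by about 1 log2 unit, and arrays of a group differed by at most 0.2.

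The remaining named rises were Plcxd2 and Cdh8 (both 1.15), the latter a cadherin, Mirg (1.15), Gpr137b (1.10), a lysosomal membrane protein, Atat1 (1.10), which acetylates tubulin, Dock3 (1.05), Pde1c (1.05), a phosphodiesterase, Lgals12 (1.05), a galectin, and Ankrd37 (1.00). Other probe sets disagreed in sign for Dock3, whose other set changed by -0.20, and for 1 other set each of Gpr137b, Pde10a and Pde1c (-0.20, -0.05 and -0.10).

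**Figure D3:**
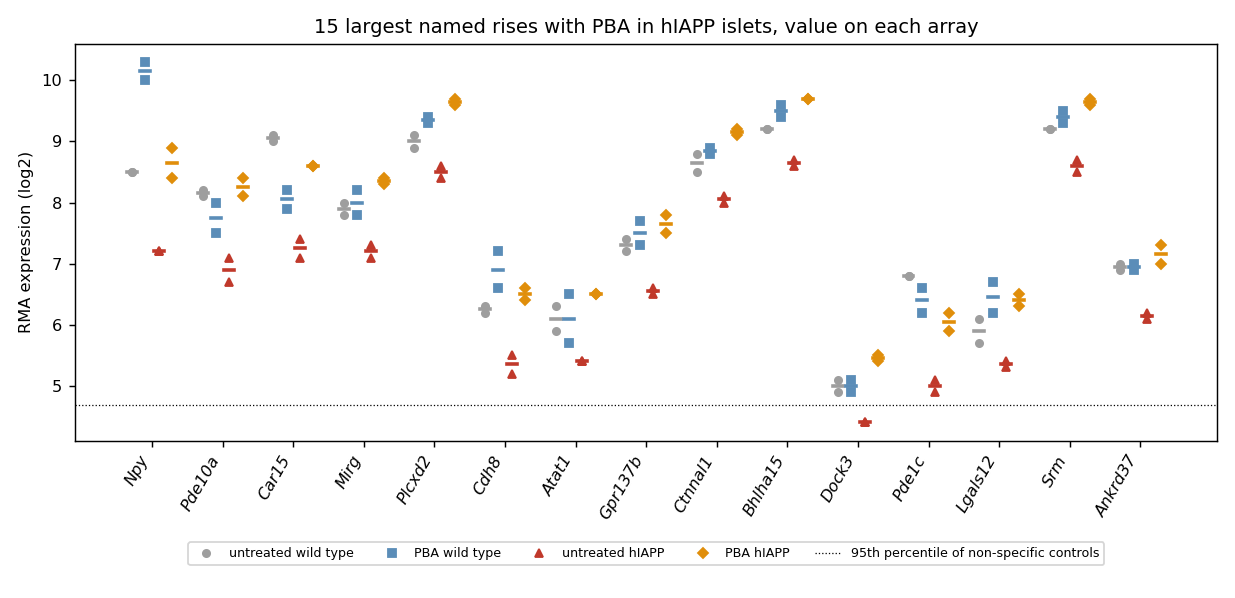
RMA expression (log2) of the 15 largest named rises on each of the 8 arrays, 2 points per group with a short line at the group mean. The untreated hIAPP points are the lowest for all 15 genes, and Npy is higher with PBA in both genotypes.

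Mirg, a long non-coding RNA of the imprinted Dlk1-Meg3 domain, hosts a cluster of microRNAs, which are short RNAs that repress messenger RNAs through their seed. Mirg was at 7.3 and 7.1 on the untreated arrays and at 8.4 and 8.3 on the treated arrays (change 1.15, SE 0.16, adjusted p = 0.0070). It lies at chr12:109734981-109749458 of the mouse assembly GRCm38.p6, and RefSeq places 10 microRNA hairpins with 19 mature products inside it. Mature microRNAs were not measured by these probes. A pair of the products shares a seed, and another from the same locus is given for contrast, with the seed (bases 2 to 8) in capitals.
mmu-miR-453: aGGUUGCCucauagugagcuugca
mmu-miR-496a-5p: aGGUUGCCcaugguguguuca
mmu-miR-410-3p: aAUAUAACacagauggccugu
Other genes of the domain, chosen after their values were seen, did not move alike. Meg3 was at 11.5 and 11.2 untreated and at 11.9 on both treated arrays (change 0.55, SE 0.13, adjusted p = 0.0489), Rian changed by 0.05 (adjusted p = 0.9113) and Dlk1 by 0.30 (adjusted p = 0.5261).

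Among genes of macrophages, 13 of 21 measured core markers fell and none rose, with a median change of -1.0. Fcer1g, the signalling chain of Fc receptors, was at 9.0 and 8.9 untreated and at 7.9 and 8.0 treated (change -1.0, SE 0.10, adjusted p = 0.0024). Clec7a, the beta-glucan receptor dectin-1, was at 8.4 and 7.9 untreated and at 6.3 and 5.8 treated (change -2.10, SE 0.22, adjusted p = 0.0028). Falls were also seen in Ms4a7 (-1.20) and Laptm5 (-1.60). Some treated levels lay between the other groups: Cd68, a lysosomal protein of macrophages, was at 8.9 and 8.5 untreated, at 7.5 and 7.4 treated, and at 5.2 to 6.2 on the wild-type arrays. Lyz2, lysozyme, was at 11.5 and 11.2 untreated and at 10.8 and 10.7 treated, a difference of -0.60 that missed the threshold (adjusted p = 0.0515). The median level of the list was 8.00 and 7.80 on the untreated arrays, 6.50 and 6.20 on the treated arrays and 5.30 to 6.0 on the wild-type arrays.

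Of 15 genes of lipid-handling macrophages, 9 fell and none rose (median -0.90). Cd36, a scavenger receptor for oxidised lipids that endothelial and fat cells also make, was at 8.4 and 8.2 untreated and at 5.8 and 5.3 treated (change -2.75, SE 0.18, adjusted p = 0.0011). Lgals3, galectin-3, was at 10.5 and 10.1 untreated and at 8.2 and 8.3 treated (change -2.05, SE 0.18, adjusted p = 0.0020). Fabp4, a fatty acid carrier of macrophages, fat cells and capillaries, was at 11.2 and 11.3 untreated and at 9.2 and 9.5 treated (change -1.90, SE 0.13, adjusted p = 0.0011). In all 3 genes both treated arrays were below both untreated arrays, and the treated levels were within or near the wild-type ranges for Cd36 and Lgals3 and below the wild-type range for Fabp4.

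Of 18 genes of alternatively activated macrophages, 6 fell and 1 rose (median -0.43). Mrc1, the mannose receptor (-2.30), and Pf4, platelet factor 4 (-1.95), both fell to levels near background. The exception was Arg1, the arginine-degrading arginase, named after its value was seen, which rose by 0.55 in hIAPP islets (adjusted p = 0.0255) and by 1.05 with PBA in wild-type islets (adjusted p = 0.0197). Genes of antigen presentation also fell: 10 of 16 MHC class II genes fell and none rose (median -0.97). Cd74, the invariant chain, was at 9.3 and 9.4 untreated and at 8.1 and 8.0 treated (change -1.30, SE 0.10, adjusted p = 0.0013). H2-DMa and H2-Aa (both -1.30) and H2-Ab1 (-1.15) fell too. The other probe sets of H2-Aa did not fall (0.00 to 0.15).

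Chemokines, complement and interferon-stimulated genes fell as well. Of 36 chemokine ligands, 13 fell and none rose (median -0.40), Ccl6 (-2.90) beside Ccl9 and Ccl21b. Of 18 receptors, 6 fell and none rose, and their median was -0.12 (0.07 with median-centred arrays). Of the 4 receptors named, Cxcr3, Cxcr5 and Cxcr6 were near background with PBA, Cxcr3 and Cxcr6 without it as well. Ackr3, a scavenger receptor for Cxcl12, was at 8.5 and 8.6 untreated and at 7.0 and 7.5 treated (change -1.30, adjusted p = 0.0113). Complement, the plasma cascade that marks targets for uptake, had 13 of 22 genes lower and none higher (median -1.0). C4b was at 8.9 and 8.7 untreated and at 7.2 and 7.6 treated (change -1.40, SE 0.15, adjusted p = 0.0028), C1qb fell by 1.35, and the inhibitor Serping1 fell by 1.05.

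Of 30 interferon-stimulated genes, 7 fell and none rose (median -0.38). Ifitm3, which blocks viral entry, was at 10.2 and 10.3 untreated and at 8.8 and 9.0 treated (change -1.35, SE 0.13, adjusted p = 0.0023). Rsad2, the antiviral viperin (-1.40), and the GTPase Gbp2 (-1.25) fell. In the IL-1, inflammasome and Toll-like receptor list 4 of 27 genes fell (median -0.30), among them Cd14, the lipopolysaccharide co-receptor (-1.80), Casp1, the protease that matures IL-1 beta (-0.95), and Il33 (-1.80). Of 33 lysosomal genes 7 fell and none rose (median -0.15, and 0.05 with median-centred arrays), and the largest named falls were in the cathepsins Ctsc (-1.40), Ctsh (-1.55) and Ctsk (-1.25) and in the acid phosphatase Acp5 (-1.40). Of 25 lymphocyte and plasma cell genes, 3 fell (median -0.40). Cd3d (-1.20) and Pou2af1 (-2.55) fell to near background, and Ighm (-0.95) was near background without PBA as well.

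Of 36 measured proteasome subunits 3 fell and none rose (median 0.05), a share near the 6.32% of all genes. The 3 were Psmb8, Psmb9 and Psmb10, the catalytic subunits of the immunoproteasome that interferon induces. Psmb9 was at 8.4 on both untreated arrays and at 7.8 and 7.7 treated (change -0.65, SE 0.10, adjusted p = 0.0088). Psmb10 changed by -0.75 and Psmb8 by -0.55. No other subunit passed the threshold, though 4 did with median-centred arrays, all higher, as did 2611 of all 17097 genes.

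Extracellular matrix genes fell across several lists. Of 41 collagen chains 14 fell and none rose (median -0.30). Col6a3, a chain of the microfibrillar collagen VI, was at 9.2 and 9.1 untreated and at 7.6 on both treated arrays (change -1.55, SE 0.14, adjusted p = 0.0021). Col6a2 was at 9.9 and 9.8 untreated and at 8.1 and 8.4 treated (change -1.60, SE 0.15, adjusted p = 0.0022). Col4a1, a basement membrane collagen, was at 10.4 and 10.3 untreated and at 9.2 on both treated arrays (change -1.15, SE 0.11, adjusted p = 0.0022), which is the range of the wild-type arrays (8.9 to 9.2). Col1a1, a chain of fibrillar collagen I, was dim, at 5.7 on both untreated arrays and at 4.4 and 5.2 treated, and its difference of -0.90 missed the threshold (adjusted p = 0.0611).

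Enzymes that build and cut matrix fell alongside. Of 23 collagen-processing enzymes 7 fell (median -0.35). Loxl1, which cross-links elastin, was at 7.2 and 7.1 untreated and at 5.0 and 5.4 treated (change -1.95, SE 0.17, adjusted p = 0.0020). Its relative Lox (-1.90), Pcolce, which enhances procollagen cleavage (-1.80), and Serpinh1, the collagen chaperone of the ER (-1.05), fell. Of 30 metalloproteinases and inhibitors 11 fell and none rose (median -0.55), including the inhibitor Timp2, which was at 10.1 on both untreated arrays and at 8.7 and 8.8 treated (change -1.35, SE 0.15, adjusted p = 0.0035). Of the proteases, Adamts5 (-1.15) and Adam8 (-1.40) fell.

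Among 38 matricellular and elastic fibre genes 21 fell and 1 rose (median -1.0). Fbln5, which organises elastic fibres, was at 9.4 and 9.5 untreated and at 7.0 and 7.4 treated (change -2.25, SE 0.14, adjusted p = 0.0011). Its other probe set changed by 0.00. Mfap5, a microfibril protein (-2.20), and Tnxb, tenascin X (-1.75), fell. The rise was in Tnr, tenascin R, a matrix protein of nervous tissue named after its value was seen (0.80, adjusted p = 0.0128). Of 24 matrix proteoglycans 11 fell and none rose (median -0.55). Bgn, biglycan, was at 11.0 and 10.8 untreated and at 9.3 and 9.6 treated (change -1.45, SE 0.18, adjusted p = 0.0044), and Ogn, osteoglycin, was at 8.2 and 8.0 untreated and at 4.6 and 5.9 treated (change -2.85, SE 0.43, adjusted p = 0.0096).

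The cells that make and hold matrix were read through stellate, pericyte and smooth muscle genes, of which 13 of 20 fell and none rose (median -1.12). Acta2, smooth muscle actin, was at 10.6 and 10.5 untreated, at 8.7 on both treated arrays and at 7.7 to 8.5 on the wild-type arrays (change -1.85, SE 0.15, adjusted p = 0.0016). Myh11, smooth muscle myosin, was at 7.8 and 8.0 untreated and at 5.9 and 6.1 treated (change -1.90, SE 0.14, adjusted p = 0.0014). The intermediate filament Des (-1.35) and the myosin kinase Mylk (-1.70) fell. The other probe set of Des changed by 0.20. Of 30 integrin and laminin subunits 11 fell (median -0.53), among them Itga1, a collagen receptor (-1.70), Lama2 (-1.40) and the laminin binder Nid1 (-1.05).

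In the TGF-beta pathway, which drives matrix production, 11 of 29 genes fell and none rose (median -0.50). Of the ligands, Tgfb3 was at 6.3 on both untreated arrays and at 4.7 on both treated arrays (change -1.60, SE 0.11, adjusted p = 0.0011). Of the receptors, Tgfbr2 was at 9.3 on both untreated arrays and at 8.0 and 7.9 treated (change -1.35, SE 0.12, adjusted p = 0.0020). Ltbp1, which holds the latent ligand in the matrix, changed by -1.40, and Fstl1, a secreted glycoprotein, by -1.80. The other probe sets of Ltbp1 did not fall (0.00 to 0.20). In the insulin-like growth factor list 3 of 12 genes fell and 1 rose (median -0.10, and 0.10 with median-centred arrays). The ligand Igf1 (-1.75) and the binding proteins Igfbp6 (-1.75) and Igfbp4 (-1.85) fell, while the receptor Igf1r rose by 0.50.

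Genes of blood vessels fell in hIAPP islets. Of 30 blood endothelial genes 18 fell and none rose (median -0.85), and 28 had both treated arrays below both untreated arrays (20.8% over all genes). Icam1, an adhesion molecule for leukocytes, was at 7.3 and 7.4 untreated and at 5.1 and 5.0 treated (change -2.30, SE 0.18, adjusted p = 0.0014). Selp, P-selectin, which leukocytes roll on, was at 7.3 and 7.6 untreated and at 4.7 and 5.0 treated (change -2.60, SE 0.15, adjusted p = 0.0011). Pecam1, a junction protein of all endothelium, was at 8.3 and 8.2 untreated and at 6.7 and 7.1 treated (change -1.35, adjusted p = 0.0036), within its wild-type range of 6.7 to 7.2. Of 11 lymphatic genes 4 fell (median -0.60), including podoplanin, Pdpn (-1.85). Of 23 angiogenic factors and receptors 6 fell (median -0.40), among them Vegfc (-0.90) and Nrp1 (-0.50).

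Exocrine genes moved with treatment but varied within groups. Of 32 acinar genes 26 had both treated arrays below both untreated arrays (20.8% over all genes), with a list median of -2.20. Yet only Sycn and Cela3b fell past the threshold, and Bhlha15 rose. Cpa1, a digestive carboxypeptidase, was at 11.8 and 12.7 untreated and at 9.4 and 10.8 treated, a difference of -2.15 that missed the threshold (adjusted p = 0.0904). Prss2, a trypsinogen, differed by -2.20 (adjusted p = 0.0978). Of 18 duct genes 4 fell (median -0.10, and 0.10 with median-centred arrays). Aqp1, a water channel of ducts and capillaries, was at 9.5 on both untreated arrays and at 5.9 and 7.2 treated (change -2.95, SE 0.36, adjusted p = 0.0045), and Krt19, a duct keratin, was at 7.1 and 7.3 untreated and at 4.0 and 7.0 treated (difference -1.70, adjusted p = 0.2834). The genes Mmp12, Ccl9, Ccl21b, Gpnmb, Smoc2, Cd36, Fabp4, Fbln5, Selp, Acta2 and Adcy7 were among 18 named genes that still passed with the acinar median as a covariate. The acinar median also differed within untreated wild-type islets, at 12.00 and 10.30, where the core macrophage median was 6.0 and 5.90, the blood endothelial median 6.50 and 6.65 and the stellate median 5.55 and 5.60. Some lymphocyte and plasma cell genes differed along with it on these arrays. Jchain was at 8.5 and 5.3, Ms4a1 at 7.9 and 4.7 and Pou2af1 at 5.2 and 3.3. These values come from 1 pair of wild-type arrays, whose acinar medians were above the 7.90 and 9.60 of the treated hIAPP arrays. The part of exocrine RNA in the other results was not tested further.

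**Figure D4:**
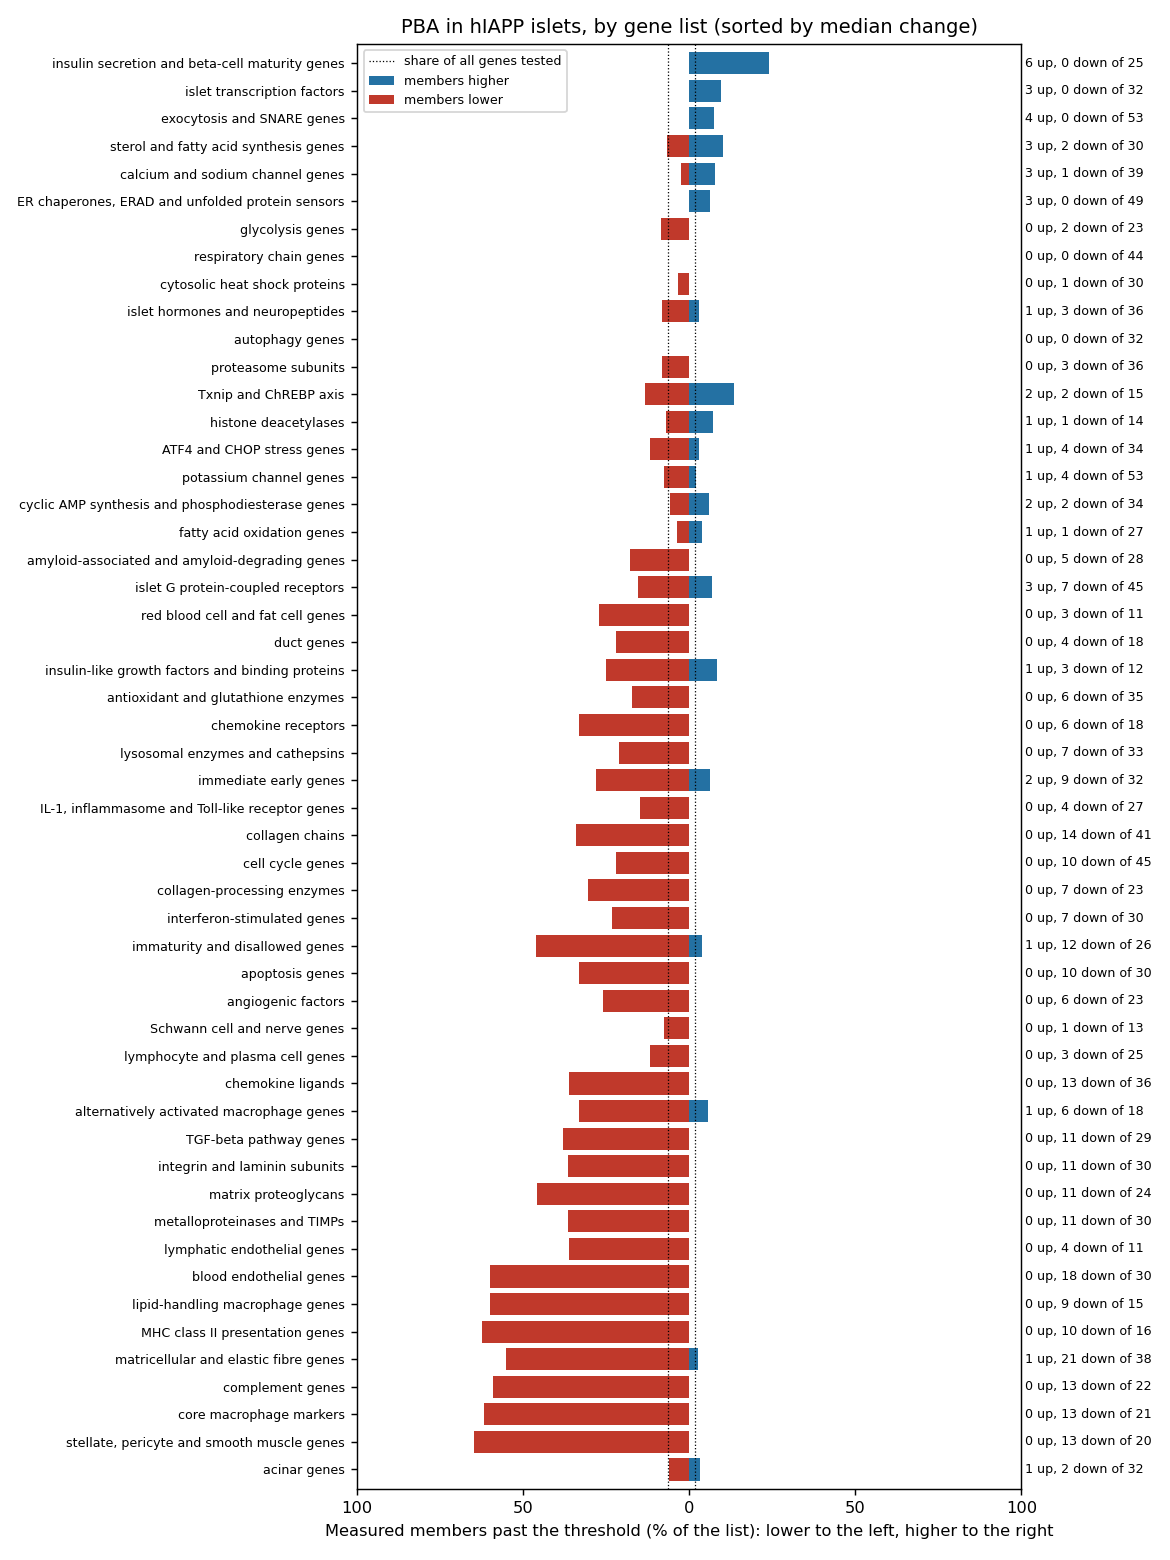
Share of the measured members of each gene list past the threshold, lower with PBA to the left and higher to the right, sorted by the median change of the list; dotted lines mark the share over all genes (6.32% lower, 1.78% higher). Stellate, macrophage, MHC class II and endothelial lists reach furthest left, and the insulin secretion list reaches furthest right with 6 of 25.

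Hormone transcripts did not pass the threshold. Ins2 was at 14 and 14.1 untreated and at 14 on both treated arrays, at the top of the scale. Gcg, Sst and Ppy, the genes of glucagon, somatostatin and pancreatic polypeptide, differed by -0.05, 0.30 and 0.25 (adjusted p = 0.8353, 0.2156 and 0.1868). Rises were found instead in genes of the secretory machinery: 6 of 25 insulin secretion and beta-cell maturity genes rose and none fell (median 0.35). Sytl4, granuphilin, which docks insulin granules, was at 10.6 on both untreated arrays and at 11.3 on both treated arrays (change 0.70, SE 0.11, adjusted p = 0.0096). Pcsk1, the convertase that cuts proinsulin, was at 10.6 on both untreated arrays and at 11.2 on both treated arrays (change 0.60, SE 0.10, adjusted p = 0.0116). Gipr, the receptor of the incretin GIP, rose by 0.75 and Trpm5, a cation channel of beta cells, by 0.75. With arrays centred on their medians 14 of the 25 passed, all higher, with a median of 0.55 against 0.20 over all genes. In that setting 2611 of all 17097 genes passed as higher.

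Of 32 islet transcription factors 3 rose and none fell (median 0.25). Isl1, which islet cells need to form and to secrete, was at 10.2 on both untreated arrays and at 10.8 on both treated arrays (change 0.60, SE 0.11, adjusted p = 0.0163). Nkx2-2, which keeps beta-cell identity, rose by 0.50 and the neuronal factor Myt1l by 0.70. Pdx1, the master factor of beta cells, was at 8.9 and 9.0 untreated and at 9.3 and 9.4 treated, a difference of 0.40 that missed the threshold (adjusted p = 0.1045), and the glucose transporter Slc2a2 differed by 0.45 (adjusted p = 0.0947). Of 53 exocytosis and SNARE genes 4 rose and none fell (median 0.25), among them Rims3 by 0.80, Rab3a by 0.55 and Erc2 by 0.40. Of 39 calcium and sodium channel genes 3 rose and 1 fell (median 0.20), the rises including Cacna1d, a pore subunit of L-type calcium channels (0.45), and the sodium channel Scn8a (0.65). Sytl4 and Pcsk1 each passed in 4 of the 8 fits without 1 array. Their changes of 0.70 and 0.60 could not move in these fits, because both arrays of each hIAPP group had equal values.

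Genes linked to immaturity, or normally silent in beta cells, fell in larger number than they rose: 12 of 26 fell and 1 rose (median -0.40). Over all genes 6.32% fell and 1.78% rose. Some of the 12 are also in the chemokine, TGF-beta and collagen-processing lists (Cxcl12, Smad3 and Tgm2). Which cells these falls came from cannot be told in bulk islet RNA. Rest, a repressor of neuronal and endocrine genes, was at 6.2 and 6.1 untreated and at 4.7 on both treated arrays (change -1.45, SE 0.11, adjusted p = 0.0013), within the wild-type range of 4.5 to 4.8. The treated level is just above the background limit of 4.68. Its other probe sets changed by -0.75 to 0.10, and only 1 of them fell. Ldha, lactate dehydrogenase, was at 8.8 and 8.7 untreated and at 7.6 and 7.3 treated (change -1.30, SE 0.15, adjusted p = 0.0042). Oat, ornithine aminotransferase, fell by 1.05. Aldh1a3, a marker of beta-cell dedifferentiation, was at 9.9 and 9.6 untreated and at 9.6 and 9.5 treated (difference -0.20, adjusted p = 0.3969), while the wild-type arrays were at 7.4 to 7.6.

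Among hormones and neuropeptides, Cck, cholecystokinin, moved against Npy. It was at 6.1 and 5.6 untreated, at 3.4 and 3.2 treated and at 2.9 to 3.3 on the wild-type arrays (change -2.55, SE 0.19, adjusted p = 0.0014). The vasoactive peptides Edn1, endothelin 1, and Adm, adrenomedullin, also fell (-1.45 and -1.15), all 3 genes to near background. Among receptors 3 of 45 rose and 7 fell (median -0.05, and 0.15 with median-centred arrays). In the cyclic AMP list the cyclase Adcy7 (-1.80) and the phosphodiesterase Pde2a (-1.65) fell, against the rises of Pde10a and Pde1c.

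Of 49 ER chaperone, ERAD and sensor genes 3 rose and none fell (median 0.15). Both treated arrays were above both untreated arrays for 30 of the 49 (22.6% over all genes) and below them for none. Hspa5, the main ER chaperone BiP, was at 11.6 on both untreated arrays and at 11.8 and 11.7 treated, a difference of 0.15 (SE 0.12, adjusted p = 0.5308). Xbp1, a transcription factor of the unfolded protein response, differed by -0.05 (adjusted p = 0.8353) and Ddit3, also known as CHOP, by 0.30 (adjusted p = 0.1848). Syvn1, the ubiquitin ligase of ER-associated degradation (ERAD), was at 9.0 and 9.1 untreated and at 9.9 on both treated arrays (change 0.85, SE 0.14, adjusted p = 0.0133). The oxidase Ero1a rose by 0.55 and Txndc11 by 0.45. Under median centring 25 of the 49 passed, all higher, with a median of 0.35 against 0.20 over all genes. Of all 17097 genes, 2611 passed as higher under it.

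Promoters of this list often carry the ER stress response element, a motif that ATF6 and NF-Y bind. It was searched as CCAAT followed after 9 bases of any kind by CCACG, on both strands of the 250 bases before each gene's start in RefSeq of GRCm38.p6. It was found for 35 of 27025 genes (0.13%) and for 10 of the 43 list genes with a window (23.26%). The windows of Syvn1, which rose, and of Hspa5, which did not pass, are shown to compare genes that share the element, with the match in capitals. They lie on the plus strand at chr19:6046326-6046575 and chr2:34771840-34772089.
Syvn1: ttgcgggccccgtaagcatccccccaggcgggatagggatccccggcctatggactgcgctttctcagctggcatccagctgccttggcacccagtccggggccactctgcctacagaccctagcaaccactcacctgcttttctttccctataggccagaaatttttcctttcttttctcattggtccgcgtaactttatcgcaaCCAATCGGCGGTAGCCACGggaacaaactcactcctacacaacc
Hspa5: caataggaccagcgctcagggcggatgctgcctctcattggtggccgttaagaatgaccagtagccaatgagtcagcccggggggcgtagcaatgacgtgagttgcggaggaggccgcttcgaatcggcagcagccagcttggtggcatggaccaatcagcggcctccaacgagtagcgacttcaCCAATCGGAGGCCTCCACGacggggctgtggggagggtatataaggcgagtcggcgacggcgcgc
The match begins 44 bases before the start in Syvn1 and 65 in Hspa5. The 10 genes with the element had a median change of 0.12, from 0.00 for Creld2, Dnajc3, Pdia6 and Hsp90b1 to 0.85 for Syvn1. The 33 genes without it had a median of 0.20. A match is a description of the letters only.

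In the integrated stress response list 1 of 34 genes rose and 4 fell (median 0.00). The transcription factor Atf4 was at 10.5 and 10.6 untreated and at 11.1 on both treated arrays (change 0.55, SE 0.10, adjusted p = 0.0154). Ddit4, an inhibitor of mTOR, was at 9.3 and 9.1 untreated and at 8.4 and 8.5 treated (change -0.75, SE 0.11, adjusted p = 0.0078), and Stc2 (-0.95) and Cebpb (-0.70) fell. Of 14 histone deacetylase genes 1 rose, Hdac6 by 0.60, and 1 fell, Hdac9 by 1.05 (1.78% higher and 6.32% lower over all genes). Of 28 amyloid-associated genes 5 fell and none rose (median -0.05, and 0.15 with median-centred arrays). Aplp2, a relative of the amyloid precursor (-0.75), gelsolin, Gsn (-0.85), and the antiprotease Serpina3n (-1.35) fell.

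The glucose-responsive pair Txnip and Arrdc4 fell in hIAPP islets. Txnip, which binds thioredoxin and limits glucose uptake, was at 12.0 and 11.8 untreated, at 10.4 and 10.5 treated and at 10 to 10.3 on the wild-type arrays (change -1.45, SE 0.13, adjusted p = 0.0020). Arrdc4, its relative, was at 8.1 and 8.0 untreated and at 6.0 and 6.3 treated (change -1.90, SE 0.14, adjusted p = 0.0012). Mlx, the partner of the glucose-sensing factor ChREBP, rose by 0.70 and the fatty acid elongase Elovl6 by 0.60. Among 23 glycolysis genes 2 fell (6.32% over all genes), Ldha and Pfkfb3, the latter with a change of -2.05. Among sterol and fatty acid synthesis genes 3 of 30 rose and 2 fell, against 1.78% and 6.32% of all genes (median 0.20). The rises included Lss, which makes lanosterol (0.90), and Tm7sf2 (0.65).

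Genes of proliferation and cell death fell too. Of 45 cell cycle genes 10 fell and none rose (median -0.30). Mki67, a marker of cycling cells, was at 6.4 and 6.3 untreated and at 4.8 and 4.9 treated (change -1.50, SE 0.18, adjusted p = 0.0044), and the cycle inhibitor Cdkn1a was at 8.0 and 8.1 untreated and at 6.9 and 6.8 treated (change -1.20, SE 0.11, adjusted p = 0.0021). Of 30 apoptosis genes 10 fell and none rose (median -0.40), on both sides of the process: the inhibitor Birc3 (-1.25) and the BH3-only killers Pmaip1 (-1.15) and Bcl2l11 (-0.75). Pmaip1 was near background in all groups, at 4.4 and 4.6 on the untreated hIAPP arrays. Of 32 immediate early genes 9 fell and 2 rose (median -0.30), among the falls Nr4a3 (-2.05) and the phosphatases Dusp1 (-0.75) and Dusp6 (-1.15).

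The wild-type arrays ask whether PBA acts alike without the transgene, and they share no array with the hIAPP comparison. In wild-type islets 50 genes passed (0.292%), 25 higher and 25 lower. A test of the difference between the effects in hIAPP and wild-type islets passed for 335 genes (1.96%), 46 of them with a higher value in hIAPP (0.269%) and 289 with a lower one (1.69%), including 270 of the 1080 lowered and 25 of the 304 raised genes. Of the lowered genes, 13 were also lowered in wild-type islets and 684 (63.3%) had a lower mean there, against 45.8% of all genes. Of the raised genes, 5 were also raised in wild-type islets and 179 (58.9%) had a higher mean, against 43.3% of all genes.

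Endothelial and matrix genes were among those whose fall was larger in hIAPP islets. The blood endothelial list had a median of 0.00 in wild-type islets and 10 of its 30 genes had a difference past the threshold, as did 12 of 38 matricellular and elastic fibre genes. None of the 10 endothelial genes and 4 of the 12 matricellular ones were near background in untreated wild-type islets, where a fall could not be measured. Smoc2 was one of the 4 (difference -3.50, SE 0.25, adjusted p = 0.0070). Of all 335 genes, 85 with a value below 0 were near background in this way. Core macrophage markers had a median of -0.50 in wild-type islets, where none passed, and 1 of 21 had a difference past the threshold. Ccl9 and Mmp12 fell in wild-type islets as well, with changes of -1.55 and -1.25 (adjusted p = 0.0149 and 0.0423).

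For some genes the changes had opposite signs, though of the 4 below only Arrdc4 passed in wild-type islets (adjusted p = 0.0250). Mki67 and Top2a, an enzyme of chromosome segregation, fell in hIAPP islets (-1.50 and -1.60), and in wild-type islets, where both were near background without PBA, their differences of 1.10 and 1.35 missed the threshold (adjusted p = 0.0835 and 0.0662; differences between genotypes -2.60 and -2.95, each with an adjusted p of 0.0099). Arrdc4 changed by 1.15 in wild-type islets (difference -3.05, SE 0.19, adjusted p = 0.0054). Car15 rose by 1.35 in hIAPP islets. In wild-type islets it was at 9.0 and 9.1 untreated and at 8.2 and 7.9 treated, a value of -1.0 that missed the threshold (adjusted p = 0.0561; difference between genotypes 2.35, SE 0.20, adjusted p = 0.0076). Npy rose in both genotypes, by 1.45 and 1.65, with a difference of -0.20 (SE 0.25, adjusted p = 0.7505). In the sterol list 7 of 30 genes rose in wild-type islets (median 0.47) and 3 in hIAPP islets, and 2 of the 30 had a difference past the threshold.

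**Figure D5:**
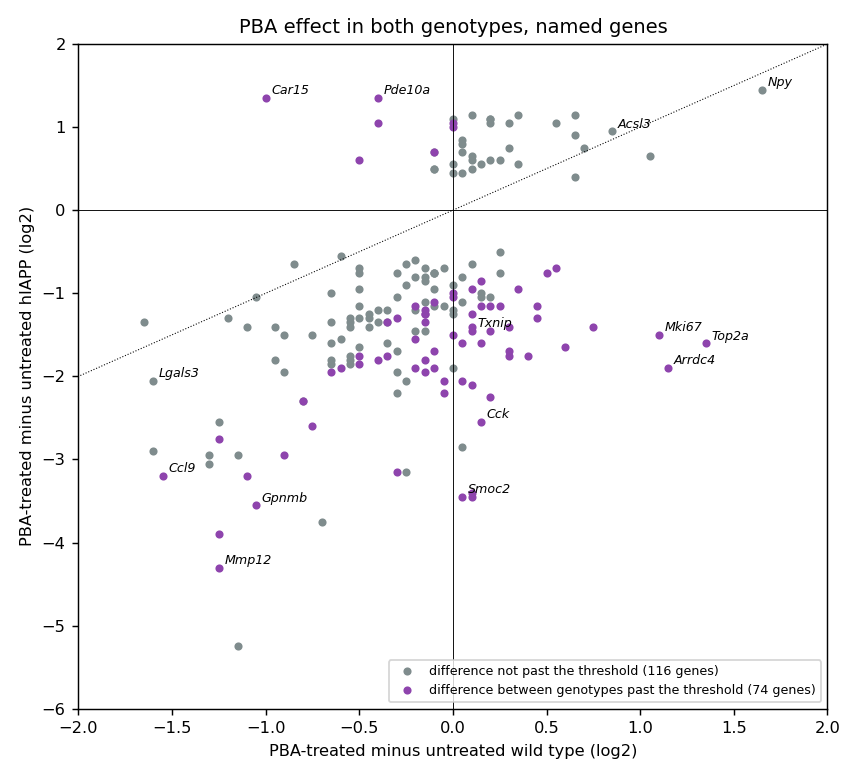
PBA-treated minus untreated (log2) in wild-type islets on the horizontal axis and in hIAPP islets on the vertical axis for the named genes past the threshold in hIAPP islets; the dotted line marks equal changes. The 74 purple genes have a difference between genotypes past the threshold, most of them below the line, with Car15 and Pde10a above it and Npy near it.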

How the data were processed

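Total RNA of isolated islets was hybridised to 8 one-colour Affymetrix arrays, 2 in each of 4 groups. The authors deposited 1 log2 value per probe set and array, made with RMA (background correction, quantile normalisation and probe summary) with the affy package, per the submitters' processing notes, whose version is not given in the sources used here. The deposited values are rounded to 1 decimal, which limits precision as does the number of arrays, and quantile normalisation gives all arrays 1 distribution of probe sets.

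Of 45141 probe sets, 104 controls were left out, and 28898 of the rest name 1 gene symbol, 551 several and 15588 none in GEO's platform annotation. The probe set with the highest mean stood for a gene (7180 genes have several), which gave 17097 genes. Other sets did not move alike for every named gene. No other set fell for the lowered genes Kcnk5 (0.15), Cenpa (0.10), Col5a3 (0.05), Tnfrsf1b (0.05) and Top2a (0.00). For the raised gene Erc2 the other set changed by 0.00. Sequences and coordinates come from RefSeq of GRCm38.p6, and 17055 of the symbols are in its gene table.

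A linear model of 4 group means over all 8 arrays was fitted with limma 3.58.1 in R 4.3.3, with lmFit and eBayes (4 residual and 3.27 prior degrees of freedom, prior SD 0.132). Tests were two-sided, with Benjamini-Hochberg adjustment over all 17097 genes and a threshold of 0.05. Tables and plots used Python 3.11.15, pandas 2.3.3 and matplotlib 3.10.9. No filter on low values was applied.

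The members, lists and tests were chosen with earlier results of these data known, so list counts are descriptions. Named genes were, of those called with treated and untreated arrays apart, the 15 largest rises and falls, the 10 largest each whose lower group was above background, up to 4 members of each of 52 lists with the smallest p, and a fixed panel of islet, stress and cell type markers. Predicted and small RNA genes were counted but not named, which left out 14 raised and 24 lowered genes. On simulated data of 17097 genes for this comparison, the fit recovered 14% of changes of 0.5, 70% of changes of 1, 94% of changes of 2 and 100% of changes of 3 (log2). The changes were planted only in genes above background, with independent noise and no acinar difference. The rates therefore do not cover dim genes or arrays that differ in tissue content.

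The alternatives were fits without single arrays, without 2 doubted arrays, with the 4 hIAPP arrays alone, with the replicate number as a block, array weights, a trended and robust prior, an acinar covariate or median-centred arrays, a filter on dim genes, the mean of probe sets and a 2-fold minimum.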

Additional observations from a re-analysis of the deposited data

Results flagged for a closer look

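For 74 of the named genes the PBA effect in hIAPP islets differed from that in wild-type islets in limma's test of the difference (adjusted over all genes tested), and values below are the hIAPP effect minus the wild-type effect on the log2 scale. In fits that left out 1 array, between 0 and 3 genes of all those tested passed, against 2252 to 3252 at an unadjusted p under 0.05. Of the 74, Arrdc4 and Fbln5 each passed in 1 such fit. All 74 kept their direction in the 8 fits, at 80% to 120% of the value given. For 23 of the 74 the untreated wild-type mean was near background (below 4.68), so a fall in wild-type islets could not be measured: Adamts5, Adcy7, Cck, Cenpa, Ces1d, Col5a3, Cytl1, Ephb4, Itga1, Lox, Loxl1, Ltbp1, Mfap5, Mki67, Nr4a3, Pmaip1, Ptger3, Rest, Smoc2, Stc2, Tgfb3, Tnfrsf1b and Top2a. Of these, Mki67 (1.10) and Top2a (1.35) had higher wild-type means with PBA, without passing the threshold there.

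Genes with a difference above 0 were Car15 (2.35), Pde10a (1.75), Pde1c (1.45), Elovl6 (1.10), Dock3 (1.05), Ankrd37 (1.00) and Mlx (0.80). All other differences were below 0.

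In immune genes the difference was -3.05 for Mmp12, -2.65 for Ccl21b, -2.50 for Gpnmb, -2.20 for Clec7a and -1.65 for Ccl9. It was -2.15 for Rsad2, -1.50 for Cd36, -1.30 for Fabp4, -1.30 for Pf4, -1.10 for Gbp2 and -1.0 for Ifitm3. Antigen presentation was represented by Cd74 (-1.0) and H2-Ab1 (-0.95), and cytokine signalling by Tnfrsf1b (-1.40) and Ackr3 (-1.75).

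In matrix genes it was -3.50 for Smoc2, -2.45 for Fbln5, -2.15 for Mfap5 and -2.15 for Tnxb. Collagens and their enzymes were at -1.65 for Col6a2, -1.35 for Col6a3, -1.30 for Col4a1, -1.0 for Col5a3, -1.80 for Loxl1, -1.70 for Lox and -1.35 for Adamts5. Basement membrane and adhesion genes were at -2.0 for Itga1, -1.50 for Lama2 and -1.05 for Nid1. The TGF-beta and growth factor genes were at -1.75 for Tgfb3, -1.70 for Ltbp1, -1.65 for Fstl1, -1.20 for Tgfbr2 and -1.25 for Igfbp6.

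In contractile and vessel genes it was -1.80 for Myh11, -1.60 for Mylk, -1.35 for Acta2, -2.10 for Vwf, -2.05 for Aplnr and -1.85 for Selp. Icam1 was at -1.50, S1pr1 at -1.35, Ephb4 at -1.05 and the myelin gene Pmp22 at -1.0.

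In genes of the cell cycle, death and stress it was -2.95 for Top2a, -2.60 for Mki67, -2.25 for Cenpa and -1.05 for Cdkn1a. Pmaip1 was at -1.40, Birc3 at -1.10, Stc2 at -1.30, Ddit4 at -1.25, Bag3 at -1.25 and Nr4a3 at -2.10.

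In metabolic and signalling genes it was -3.05 for Arrdc4, -1.55 for Txnip, -2.0 for Pfkfb3, -1.50 for Cat and -1.40 for Adcy7. Peptide and receptor genes were at -2.70 for Cck and -2.85 for Ptger3. The other values were -3.55 for Cytl1, -3.50 for Ces1d, -2.05 for Aqp4, -1.65 for Rest, -1.60 for Hbb-b2 and -1.0 for Gsn.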

How the results depend on the processing

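With 2 arrays per group, all counts depend on the estimate of the spread. The hIAPP effect, 1384 genes, passed for 166 to 968 genes without 1 array, and a lone array of a group is then assumed to vary like the others. It passed for 14 genes with the 4 hIAPP arrays alone, for 629 at 2-fold or more, for 2295 with a trended and robust prior, for 3499 with median-centred arrays and for 41 with the acinar covariate. The wild-type effect, 50 genes, passed for 0 to 2 without 1 array, for 80 after the filter on dim genes and for 299 with the trended prior. The difference between genotypes, 335 genes, passed for 0 to 3 without 1 array, for 1059 with the trended prior and for 4 with the acinar covariate.

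Without the first treated array of each genotype, that of wild type with low hybridisation controls and that of hIAPP with the lowest acinar level, limma called 0 genes in all 3 comparisons, against 3361, 1649 and 2555 at an unadjusted p under 0.05. With the 4 wild-type arrays alone it called 0, against 1802 unadjusted. Fits without 1 array that called 0 genes had 1212 to 2881 (wild-type effect) and 2252 to 2537 (difference) at an unadjusted p under 0.05.

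Replicate numbers did not pair the arrays: the deviations of untreated and treated hIAPP arrays with the same number correlated at 0.098. With the number as a block 1027 genes passed for the hIAPP effect, 5 for the wild-type effect and 118 for the difference. The cause of these moves was not tested. No named gene that passed changed direction in any alternative. Genes near background have only a bound on their fall. At the threshold, Cebpd (-0.60), Ptpn12 (-0.60) and Smad3 (-0.85) were just inside, and Pprc1 (0.45), Wbp1l (-0.45) and Shisal2b (0.45) just outside.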

Other observations

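Several groups of housekeeping genes showed few or no changes with PBA in hIAPP islets. None of 44 respiratory chain genes and none of 32 autophagy genes passed limma's threshold, with medians of 0.10 for each list. Over all genes 8.09% passed, 1.78% higher and 6.32% lower, which for lists of this size amounts to few genes. With median-centred arrays 12 of the respiratory chain genes passed, all higher, and 0 of the autophagy genes, while 2611 of all 17097 genes passed as higher. The respiratory gene with the smallest p was Cox8a, a subunit of cytochrome c oxidase, at 10.6 and 10.7 untreated and at 11.0 and 10.9 treated (difference 0.30, adjusted p = 0.1232). Of 30 cytosolic heat shock genes 1 passed, Bag3, a co-chaperone of Hsp70, which fell by 0.70. Of 27 genes of fatty acid oxidation Cpt1a, which admits fatty acids to mitochondria, fell by 0.75 (adjusted p = 0.0047) and Acsl3, which activates fatty acids, rose by 0.95.

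Antioxidant genes held 6 falls among 35 and no rise (median -0.10, and 0.10 with median-centred arrays). Catalase, Cat, was at 7.8 and 7.9 untreated, at 6.2 and 6.5 treated and at 6.0 to 6.5 on the wild-type arrays (change -1.50, SE 0.18, adjusted p = 0.0044). Prdx4, the peroxiredoxin of the ER, was at 9.8 on both untreated arrays and at 9.1 on both treated arrays (change -0.70, SE 0.11, adjusted p = 0.0096). Potassium channel genes held 4 falls and 1 rise among 53 (median 0.00), shares near the 6.32% and 1.78% of all genes. Kcna1 (-0.80), Kcnk5 (-0.80) and Kcnn4 (-1.15) fell, and Kcnh2, which helps to repolarise beta cells, rose by 0.50. The globin transcripts of red blood cells fell as well, Hbb-b2 (-1.15) and Hba-a1 (-0.75), genes whose near-identical copies the probes may not separate. Of 13 Schwann cell and nerve genes Pmp22, a myelin protein that fibroblasts also make, fell by 1.00, and Sox10, which defines Schwann cells, was at 4.9 and 4.4 untreated and at 4.8 and 4.3 treated.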
